A study of Mus musculus with 12 samples.

Results

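The 9 genes described here are brakes on growth signalling and on translation, together with a stress-responsive gene. All were measured in the spinal cords of wild-type mice and of mice that carry a neuropathy mutation in Gars, the gene for glycyl-tRNA synthetase. They are the 3 sestrins Sesn1, Sesn2 and Sesn3, the related genes Ddit4 and Ddit4l, the 4E-BP genes Eif4ebp1 and Eif4ebp2, the GATOR1 subunit gene Depdc5, and the stress-responsive gene Nupr1. They were picked by gene symbol, and all 9 were present among the 38924 genes of the tables and passed the filter on low counts, which 17189 genes passed.

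RNA was measured in the whole spinal cord of 12 mice aged 8 weeks on a B6J;FVB background. Of these, 6 were heterozygotes labelled ETAQ+/- (called ETAQ here), with 3 females and 3 males, and 6 were wild-type animals labelled ETAQ+/+ (called WT), also with 3 females and 3 males. The allele deletes the residues glutamate, threonine, alanine and glutamine of the Gars protein, is inherited through the germline and is therefore present in every tissue. Each library came from a separately numbered mouse. The mouse numbers, 1 to 12 in the sample titles, are used below to name the libraries. ETAQ mice were numbers 1, 8 and 9 (female) and 5, 6 and 11 (male). WT mice were numbers 7, 10 and 12 (female) and 2, 3 and 4 (male).

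The kinase complex mTORC1 promotes protein synthesis and growth when amino acids, energy and growth factors are sufficient. Sestrins are proteins that bind the GATOR2 complex and so free GATOR1. GATOR1 is a complex that contains DEPDC5 and switches off the Rag GTPases which bring mTORC1 to the lysosome. DDIT4 (also called REDD1) and DDIT4L (REDD2) restrain mTORC1 through the TSC complex, and the 4E-BPs are the proteins that hold back cap-dependent translation initiation until mTORC1 phosphorylates them. Several of these genes, among them Sesn2, Ddit4, Eif4ebp1 and Nupr1, are known targets of ATF4. This transcription factor acts in the integrated stress response, which uncharged tRNA or stalled ribosomes can switch on.

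The upstream sequences of the gene that passed the test for genotype, Sesn2, and of the gene with the largest difference that did not, Nupr1, are shown because the results below turn on them. They are the 250 bases before the annotated start, from RefSeq on GRCm38.p6, written 5′ to 3′ on the gene's strand, chr4:132510457-132510706 (minus strand) for Sesn2 and chr7:126625471-126625720 (minus strand) for Nupr1. Capitals in Sesn2 mark CCAAT boxes, which read ATTGG on this strand. Capitals in Nupr1 mark an E-box (CACGTG) and, after it, a C/EBP-ATF response element core (TGATGNAA, which reads TTNCATCA on this strand).

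Sesn2: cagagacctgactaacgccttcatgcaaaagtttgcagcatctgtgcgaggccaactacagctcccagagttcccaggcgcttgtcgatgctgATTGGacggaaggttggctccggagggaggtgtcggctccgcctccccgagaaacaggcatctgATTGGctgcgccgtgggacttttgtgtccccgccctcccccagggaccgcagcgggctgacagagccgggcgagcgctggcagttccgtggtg
Nupr1: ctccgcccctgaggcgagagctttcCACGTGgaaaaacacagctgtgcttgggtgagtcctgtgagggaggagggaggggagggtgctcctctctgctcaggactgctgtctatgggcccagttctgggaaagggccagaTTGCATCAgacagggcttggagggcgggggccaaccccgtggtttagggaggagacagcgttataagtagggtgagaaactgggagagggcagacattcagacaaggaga

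Each motif was searched on both strands in the 9 windows of the 8 genes with a RefSeq upstream sequence. The C/EBP-ATF core was found in the Nupr1 window alone among these 9, at bases -110 to -103 from the start, and 3.45% of 32851 windows of this length across the genome hold it. The E-box of Nupr1 lies at -225 to -220 and occurs in 6.02% of all windows. CCAAT lies at -157 to -153 and at -93 to -89 in Sesn2, and is also present upstream of Ddit4, Sesn1 and Sesn3. It is a common motif, found in 33.8% of all windows. The forkhead core TGTTTAC (3.17% of all windows) was in none of the 9. The Sesn2 window had 63.2% G and C and the Nupr1 window 59.2%, against a median of 52.4% over all windows. These matches describe letters in a short window and say nothing of binding.

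Library totals were between 23595929 and 41452662 expected counts, and 20934 to 22006 genes had a count above 0. At these totals 3 counts correspond to between 0.0724 and 0.127 CPM (counts scaled to a common library total), a floor that covers counting error only. The cords held neuron, astrocyte and oligodendrocyte transcripts in every library, with summed levels of at least 2334, 2005 and 22188 TPM, the authors' measure per transcript length and library total. Libraries of mice 1 to 6 stood apart from those of mice 7 to 12. Of 5 red blood cell markers, all were higher in mice 1 to 6, as were 6 of 6 neutrophil, 8 of 10 skeletal muscle, 5 of 5 meningeal and 4 of 4 Schwann cell markers. The red cell sum was 7062 to 13163 TPM in mice 1 to 6 and 558 to 1128 TPM in mice 7 to 12. Each set held 3 mice of each genotype, but sex and set largely coincide, since mice 1 to 6 included 1 female and mice 7 to 12 included 1 male. Gars itself was at 135.6 to 150.8 normalised CPM in ETAQ cords and at 119.7 to 132.8 in WT cords. Counts over the whole gene do not check the genotype labels, since the deletion is short and the gene is still transcribed.

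Across the 12 mice, 1 of the 9 genes differed by genotype, Sesn2, which rose in ETAQ cords. The test was edgeR's quasi-likelihood test with sex in the model and Benjamini-Hochberg adjustment over all genes, with a threshold of 0.05. It called 330 of 17189 genes, or 1.92%, of which 100 were higher in ETAQ (0.582%) and 230 lower. On the TPM scale, with limma on log2(TPM + 0.1), the split was 73 higher and 87 lower. The median log2 fold change (ETAQ over WT) of the 9 genes was 0.11, beside 0.0043 over all genes tested, and the median absolute change was 0.11, beside 0.059. The plot of the 9 genes by library gives every value.

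**Figure D1:**
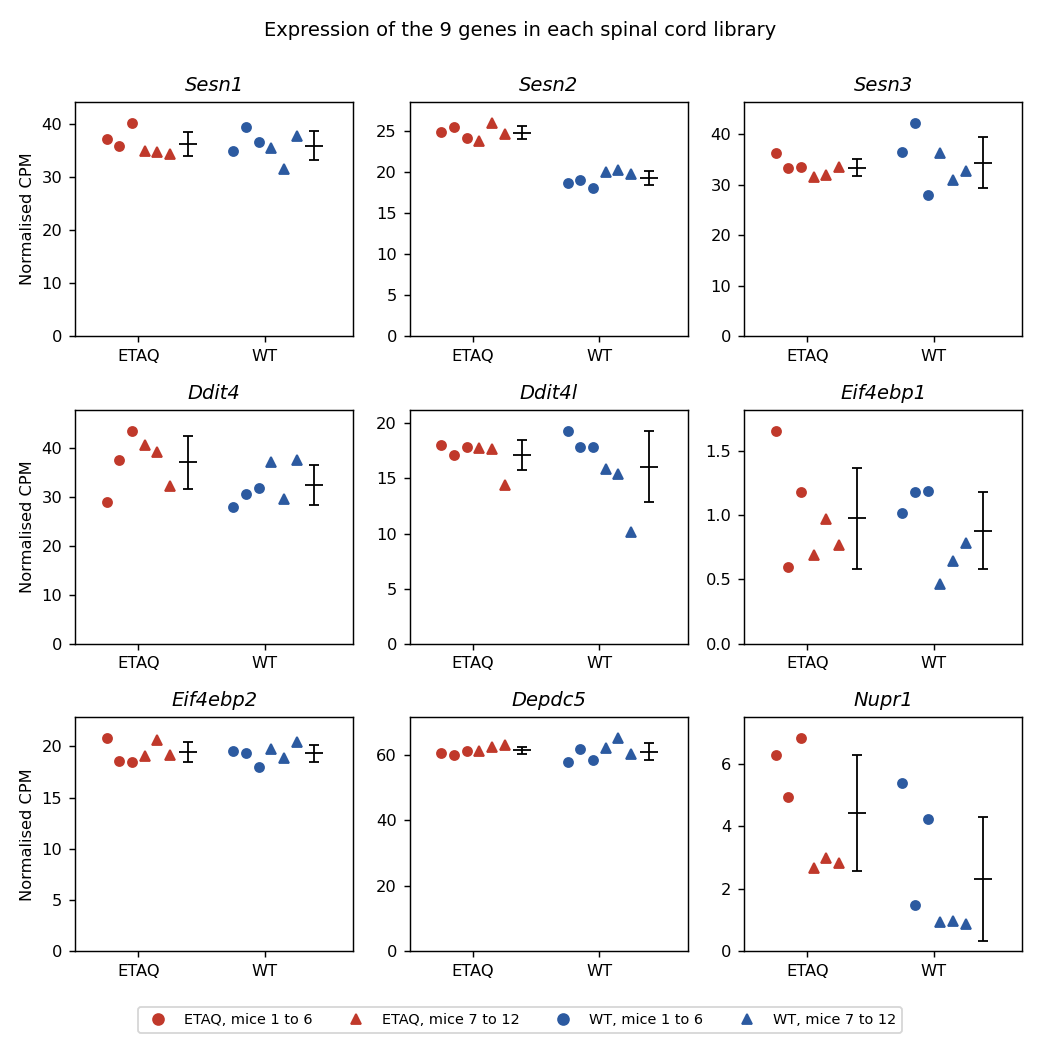
Normalised CPM of each of the 9 genes (y axis, from 0) in every library, with ETAQ mice on the left and WT mice on the right of each panel, circles for mice 1 to 6 and triangles for mice 7 to 12, and bars for the mean and SD of 6 mice. Sesn2 separates fully, with ETAQ cords at 23.8 to 26.0 and WT cords at 18.0 to 20.2, while the groups overlap in the other 8 panels.

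Sesn2 encodes the leucine-regulated sestrin that is induced by stress. Its normalised CPM was 24.9, 25.5 and 24.2 in ETAQ mice 1, 5 and 6 and 23.8, 26.0 and 24.6 in ETAQ mice 8, 9 and 11. In WT mice 2, 3 and 4 it was 18.6, 19.1 and 18.0, and in WT mice 7, 10 and 12 it was 20.0, 20.2 and 19.8. Every ETAQ cord lay above every WT cord. Such a complete separation with ETAQ higher was seen in 0.657% of genes tested, and in 2.01% in either direction. Sesn2 averaged 24.8 ± 0.801 in ETAQ cords and 19.3 ± 0.871 in WT cords (SD, n = 6 each). The log2 fold change was 0.36 ± 0.039 (SE), a 1.29-fold difference with a 95% interval of 0.28 to 0.45 on the log2 scale. Its adjusted p was 7.15e-05 in edgeR, the 48th smallest p of 17189 genes, and its absolute change was larger than that of 93.6% of genes. Without any 1 of the 12 libraries, the log2 fold change stayed between 0.35 and 0.38.

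In bulk tissue, fewer cells of a type and less RNA per cell cannot be told apart, and the same holds for more of either. The summed level of 5 motor neuron markers was 69.7 to 85.5 TPM in ETAQ cords and 108.5 to 120.1 TPM in WT cords, and 2 of the 5 fell by the same test. The summed level of 7 sensory ganglion markers was low, at 16.3 to 24.7 TPM in ETAQ and 1.89 to 2.67 TPM in WT. Only 3 of the 7 passed the filter on low counts, and 2 of these rose. The 6 astrocyte markers summed to 2365 to 2723 TPM in ETAQ cords and to 2005 to 2321 TPM in WT cords, without overlap, and 1 of the 6 rose. The test called 1.92% of all genes. The part of these cell types in the Sesn2 difference was not tested.

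Sesn2 also rose within each set and within each sex, as the plot of genotype effects shows. In mice 1 to 6, where 0.803% of genes were called, it averaged 24.8 ± 0.657 in ETAQ and 18.6 ± 0.535 in WT (SD, n = 3 each), a log2 fold change of 0.42 ± 0.060 (edgeR adjusted p = 0.0026). In mice 7 to 12, where 0.937% were called, it averaged 24.8 ± 1.08 in ETAQ and 20.0 ± 0.231 in WT, a log2 fold change of 0.31 ± 0.059 (edgeR adjusted p = 0.018). The genotypes separated completely in both sets, as 7.45% of genes did with ETAQ higher in mice 1 to 6 and 7.54% in mice 7 to 12. The difference between the set effects was 0.10 ± 0.089, with a 95% interval of -0.088 to 0.29 and an edgeR adjusted p of 0.995. The rise was seen in females (0.32 ± 0.055, edgeR adjusted p = 0.013, with 0.739% of genes called) and in males (0.41 ± 0.055, edgeR adjusted p = 0.00173, with 0.669% called). The female effect minus the male effect was -0.099 ± 0.077, with an interval of -0.27 to 0.067. The call in mice 7 to 12 was lost without any 1 of mice 1, 7, 9, 10 or 12, with edgeR adjusted p up to 0.191, and so was that in females, with adjusted p up to 0.080. The call in mice 1 to 6 and that in males did not depend on any 1 library.

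The other sestrins did not pass the test. Sesn1, a sestrin known as a p53 target, had a lowest, median and highest value of 34.3, 35.4 and 40.2 normalised CPM in ETAQ cords and of 31.6, 36.1 and 39.4 in WT cords. The ranges lay on top of each other, and the log2 fold change was 0.01 ± 0.052 (95% interval -0.10 to 0.12, edgeR adjusted p = 0.967). Sesn3, a sestrin known as a FoxO target, had values of 31.5, 33.4 and 36.4 in ETAQ cords and of 27.9, 34.5 and 42.2 in WT cords. WT mice 3 and 4 held the highest and the lowest value, and the log2 fold change was -0.04 ± 0.083 (95% interval -0.22 to 0.14, edgeR adjusted p = 0.923). For both genes the interval ends below the lower bound of the Sesn2 interval, 0.28.

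Set per transcript length, the 3 sestrins summed to 67.9 ± 2.86 TPM in ETAQ cords and to 63.8 ± 6.87 TPM in WT cords (SD, n = 6 each). Sesn2 supplied the smallest share of this sum, 19.2 ± 0.935% in ETAQ and 15.5 ± 1.45% in WT. Its share was 18.0 to 20.6% in ETAQ cords and 13.4 to 17.8% in WT cords, so the ranges did not overlap. The share carries the Sesn2 difference described above and is no separate result. Sesn3 supplied 43.4 ± 1.2% in ETAQ and 46.2 ± 3.11% in WT, and Sesn1 37.4 ± 1.44% in ETAQ and 38.3 ± 2.59% in WT. In total sestrin mRNA, the ETAQ range of 63.5 to 71.9 TPM lay inside the WT range of 57.2 to 75.6 TPM.

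Ddit4, induced by hypoxia, glucocorticoids and ATF4, did not pass the test. Its normalised CPM in ETAQ mice 1, 5, 6, 8, 9 and 11 was 29.1, 37.7, 43.6, 40.8, 39.4 and 32.4. In WT mice 2, 3, 4, 7, 10 and 12 it was 28.0, 30.6, 31.9, 37.3, 29.7 and 37.6. The top 4 values were ETAQ cords, yet ETAQ mouse 1 lay below 5 of the 6 WT cords. Ddit4 averaged 37.1 ± 5.45 in ETAQ and 32.5 ± 4.03 in WT, and the log2 fold change was 0.19 ± 0.11 (95% interval -0.040 to 0.43, edgeR adjusted p = 0.578). In males the genotypes separated, as 6.24% of genes did with ETAQ higher, with 32.4 to 43.6 in ETAQ and 28.0 to 31.9 in WT. The log2 fold change in males was 0.33 ± 0.15 (edgeR adjusted p = 0.570), beside 0.06 ± 0.15 in females, and the difference between the sexes did not pass the test (female minus male -0.27 ± 0.21, edgeR adjusted p = 0.908).

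Ddit4l, the Ddit4 relative known from skeletal muscle and heart, averaged 17.2 ± 1.38 normalised CPM in ETAQ cords and 16.1 ± 3.24 in WT cords (log2 fold change 0.11 ± 0.12, 95% interval -0.16 to 0.37, edgeR adjusted p = 0.845). The values of ETAQ mice 1, 5, 6, 8 and 9 were within 17.1 to 18.0, and ETAQ mouse 11 was at 14.4. In WT cords, mouse 12 was lowest at 10.1 and mouse 2 highest at 19.3. Among females, ETAQ cords were at 17.7 to 18.0 and WT cords at 10.1 to 15.9, a separation that 7.37% of genes showed with ETAQ higher. The log2 fold change in females was 0.37 ± 0.14 (edgeR adjusted p = 0.451) and in males -0.15 ± 0.14 (edgeR adjusted p = 0.829). Their difference, 0.52 ± 0.19, had an unadjusted p of 0.0194 and an edgeR adjusted p of 0.901. No gene was called for that difference (0.00%), and 852 genes had an unadjusted p below 0.05. The 3 WT females were all among mice 7 to 12 and the 3 WT males all among mice 1 to 6. Sex and set therefore cannot be told apart in this contrast, which holds for Ddit4 and the other genes as well.

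Eif4ebp2, the main 4E-BP of the brain, did not pass the test. Its lowest, median and highest values were 18.5, 19.1 and 20.8 normalised CPM in ETAQ cords and 18.0, 19.4 and 20.5 in WT cords. The log2 fold change was 0.01 ± 0.042 with a 95% interval of -0.080 to 0.10 (edgeR adjusted p = 0.967). Eif4ebp1, the 4E-BP that ATF4 is known to induce in pancreatic beta cells, was near the bottom of detection, with 14 to 56 expected counts in ETAQ libraries and 13 to 49 in WT libraries. Its normalised CPM in ETAQ mice 1, 5, 6, 8, 9 and 11 was 1.66, 0.600, 1.18, 0.688, 0.970 and 0.766, and in WT mice 2, 3, 4, 7, 10 and 12 it was 1.02, 1.18, 1.19, 0.466, 0.645 and 0.780. ETAQ mouse 1 was highest and WT mouse 7 lowest, and the other values of both genotypes were intermixed. The log2 fold change was 0.19 ± 0.28, with a 95% interval of -0.41 to 0.80 (edgeR adjusted p = 0.883), an interval that holds both 0 and the Sesn2 estimate of 0.36. In females the log2 fold change of Eif4ebp1 was 0.81 ± 0.35 (edgeR adjusted p = 0.525; 0.40 without ETAQ mouse 1), and in males it was -0.40 ± 0.34 (edgeR adjusted p = 0.812). Their difference, 1.21 ± 0.48, had an unadjusted p of 0.0254 and an edgeR adjusted p of 0.901. Leaving out 1 library in turn gave 0.40 to 1.06 in females and -0.72 to -0.21 in males. As for Ddit4l, sex and set cannot be told apart in this contrast. Eif4ebp2 supplied 86.6 ± 3.36% of the summed TPM of the 4E-BP genes in ETAQ and 86.3 ± 2.75% in WT. Eif4ebp3, the remaining 4E-BP gene, was at 0.164 to 0.543 normalised CPM in ETAQ and 0.276 to 0.577 in WT. Its value is uncertain, because 67.3% of its exon bases lie within another gene on the same strand.

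Depdc5 encodes the GATOR1 subunit that acts on the Rag GTPases and is known as an epilepsy gene. Its normalised CPM was 60.0, 61.2 and 63.0 (lowest, median and highest) in ETAQ cords and 57.7, 61.0 and 65.0 in WT cords. All 6 ETAQ values fell inside the WT range, and the log2 fold change was 0.01 ± 0.031 with a 95% interval of -0.054 to 0.077 (edgeR adjusted p = 0.943). The files list 15 transcripts for Depdc5, the most of the 9 genes, and give for each library the mean transcript length weighted by estimated abundance. This length was 3611, 3250 and 3980 bases in ETAQ mice 1, 5 and 6 and 3204, 3353 and 3647 bases in ETAQ mice 8, 9 and 11. It was 3845, 4075 and 3783 bases in WT mice 2, 3 and 4 and 3566, 3832 and 3592 bases in WT mice 7, 10 and 12. The ranges overlapped, with the 3 lowest values in ETAQ cords. The log2 change in length was -0.11 ± 0.049 (limma unadjusted p = 0.0486, adjusted p = 1), in a test that called 3 of 10768 genes (0.0279%) and 0 of the 5 genes described here whose length varied.

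Since TPM divides by length, Depdc5 differed more on that scale than in counts. Depdc5 stood at 32.1 ± 3.10 TPM in ETAQ cords and at 28.5 ± 2.71 TPM in WT cords, a limma log2 fold change of 0.17 ± 0.06 on log2(TPM + 0.1), against 0.01 in counts, and it did not pass the test on that scale either (adjusted p = 0.311). The TPM scale itself shifted the median of all genes by 0.041. The mean length of the other 4 genes tested changed by -0.0085 ± 0.0044 in Sesn1, -0.00097 ± 0.0033 in Eif4ebp2, -0.0018 ± 0.026 in Nupr1 and 0.068 ± 0.067 in Ddit4l on the log2 scale, each with a limma adjusted p of 1. Sesn2, Sesn3, Ddit4 and Eif4ebp1 have 1 transcript each in the files, so their lengths cannot vary.

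**Figure D2:**
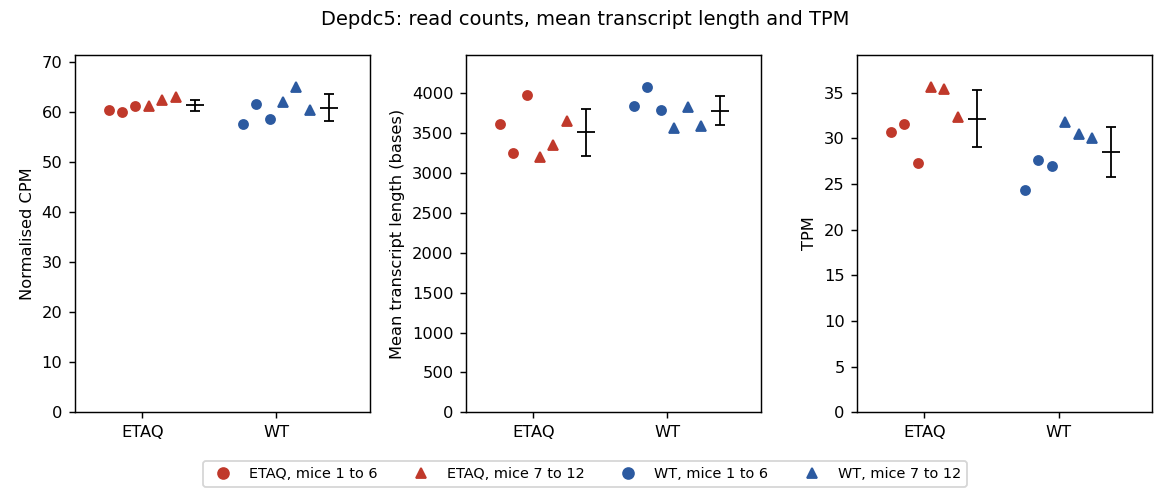
Depdc5 in each library by normalised CPM (left), mean transcript length in bases (middle) and TPM (right), all axes from 0, with ETAQ mice left of WT mice, circles for mice 1 to 6, triangles for mice 7 to 12, and bars for the mean and SD of 6 mice. Counts lie within 57.7 to 65.0 in all 12 libraries, while the 3 lowest lengths and the 3 highest TPM values are ETAQ cords.

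Nupr1, which encodes a small stress-induced chromatin protein and ATF4 target, had the largest log2 fold change of the 9 genes but did not pass the test. Its normalised CPM was 6.27, 4.93 and 6.81 in ETAQ mice 1, 5 and 6 and 2.68, 2.97 and 2.82 in ETAQ mice 8, 9 and 11. It was 5.38, 1.48 and 4.23 in WT mice 2, 3 and 4 and 0.931, 0.983 and 0.882 in WT mice 7, 10 and 12. Values were higher in mice 1 to 6 than in mice 7 to 12 within each genotype, and WT mouse 3 was the lowest of mice 1 to 6. Over the 12 mice it averaged 4.41 ± 1.85 in ETAQ and 2.32 ± 1.98 in WT, a log2 fold change of 1.15 ± 0.45 (95% interval 0.16 to 2.15, unadjusted p = 0.0274, edgeR adjusted p = 0.354). That change was larger in size than those of 99.1% of genes tested.

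Within mice 7 to 12, Nupr1 averaged 2.82 ± 0.148 in ETAQ and 0.932 ± 0.0504 in WT (SD, n = 3 each), from 74 to 92 expected counts in ETAQ libraries and 26 to 32 in WT libraries. The groups lay apart, as 7.54% of genes did in this set with ETAQ higher. The log2 fold change was 1.61 ± 0.43, or 3.06-fold, with an unadjusted p of 0.00429 and an edgeR adjusted p of 0.204. That fit takes its spread from all 12 libraries. When the 6 libraries of mice 7 to 12 were fitted alone, a choice made after seeing the data, the estimate was 1.60 ± 0.18 and the gene passed the test (edgeR adjusted p = 0.000292). In the 12-library fit it passed when WT mouse 3 was left out (1.61, edgeR adjusted p = 0.0004). Within mice 1 to 6 it averaged 6.0 ± 0.968 in ETAQ and 3.70 ± 2.0 in WT, and the groups overlapped (log2 fold change 0.67 ± 0.36, edgeR adjusted p = 0.677; 0.31 without WT mouse 3). The difference between the set effects was -0.94 ± 0.60, with a 95% interval of -2.28 to 0.39 and an edgeR adjusted p of 0.995. No gene was called for that difference (0.00%), with 683 at an unadjusted p below 0.05. In females the log2 fold change was 2.09 ± 0.54 (edgeR adjusted p = 0.219) and in males 0.38 ± 0.48 (edgeR adjusted p = 0.904). Their difference of 1.71 ± 0.72 had an unadjusted p of 0.0408 and an adjusted p of 0.901. ETAQ female 1 belongs to mice 1 to 6 and the WT females to mice 7 to 12, and ETAQ male 11 belongs to mice 7 to 12 and the WT males to mice 1 to 6, so for Nupr1 these effects cannot be told apart from the set. Without ETAQ mouse 1 the female effect was 1.60, and without ETAQ mouse 11 the male effect was 0.66. Over all libraries left out in turn, the male effect was 0.017 to 0.74, with 0.017 without WT mouse 3, and the female effect 1.60 to 2.31.

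**Figure D3:**
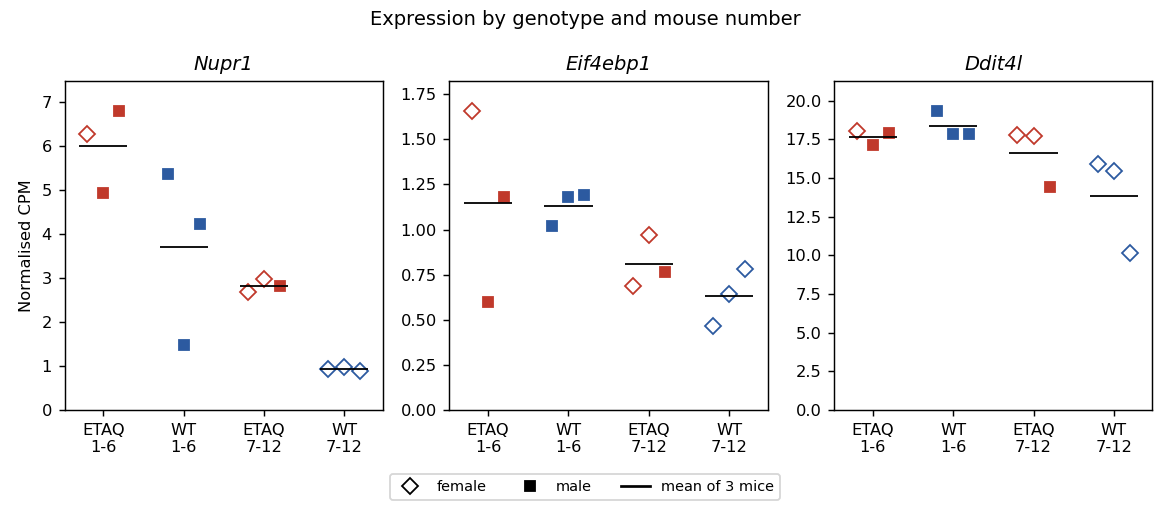
Normalised CPM (y axis, from 0) of Nupr1, Eif4ebp1 and Ddit4l by genotype and mouse number, with open diamonds for females, filled squares for males and lines for the mean of 3 mice. Nupr1 lies at 2.68 to 2.97 in ETAQ mice 8, 9 and 11 and at 0.882 to 0.983 in WT mice 7, 10 and 12, and spreads more widely in mice 1 to 6.

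Of the 9 genes, Nupr1 and Eif4ebp1 had the largest differences between the sets of mice, and neither passed the test with sex in the model. In the model with sex and genotype, 1356 genes differed between mice 1 to 6 and mice 7 to 12 (7.89%) and 0 of the 9 did. Nupr1 was close to the threshold, with a log2 fold change (mice 1 to 6 over mice 7 to 12) of 1.36 ± 0.36 (edgeR adjusted p = 0.0503). For Eif4ebp1 it was 0.88 ± 0.28 (edgeR adjusted p = 0.0645) and for Ddit4l 0.28 ± 0.15 (edgeR adjusted p = 0.333). Without the sex term, both Nupr1 (1.48, edgeR adjusted p = 0.00387) and Eif4ebp1 (0.68, edgeR adjusted p = 0.0377) passed. With sex in the model, Nupr1 passed when WT mouse 2, WT mouse 3 or ETAQ mouse 5 was left out (edgeR adjusted p = 0.0237, 0.00472 and 0.0437), and Eif4ebp1 when ETAQ mouse 5 was left out (edgeR adjusted p = 0.0197). Without ETAQ mouse 1, the female among mice 1 to 6, Eif4ebp1 was at 0.46 ± 0.45 (edgeR adjusted p = 0.694) and Nupr1 at 1.30 ± 0.63 (edgeR adjusted p = 0.388). Without ETAQ mouse 11, the male among mice 7 to 12, the adjusted p of edgeR was 0.193 for Eif4ebp1 and 0.378 for Nupr1. In Sesn2 the set effect was -0.03 ± 0.053 (95% interval -0.14 to 0.088).

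The transcripts of other tissues moved with the same sets. Summed skeletal muscle markers were 219.8 to 278.6 TPM in ETAQ and 192.7 to 1086 TPM in WT for mice 1 to 6, and 126.0 to 131.1 TPM in ETAQ and 112.1 to 133.7 TPM in WT for mice 7 to 12. Summed neutrophil markers were 512.0 to 846.8 TPM in ETAQ and 426.0 to 815.5 TPM in WT for mice 1 to 6, and 3.46 to 17.9 TPM in ETAQ and 0.83 to 13 TPM in WT for mice 7 to 12. WT mouse 3, low in Nupr1, had 495.2 TPM of muscle, 7062 TPM of red cell and 815.5 TPM of neutrophil markers. Within mice 7 to 12, where Nupr1 separated by genotype, these 3 marker sums overlapped between the genotypes, as did the meningeal sum. The Schwann cell sum did not overlap there, at 100.7 to 115.9 TPM in ETAQ and 116.1 to 125.2 TPM in WT. No marker of these lists was at 0 in all libraries. Their part in the level of Nupr1, Eif4ebp1 or Ddit4l was not tested.

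Compared per transcript length, Ddit4 was the most abundant of the 9 mRNAs and Eif4ebp1 the least. The order of the mean over 12 libraries was Ddit4 at 40.4 ± 6.57 TPM, Depdc5 at 30.3 ± 3.36, Sesn3 at 29.5 ± 3.42, Sesn1 at 24.9 ± 1.96, Eif4ebp2 at 21.02 ± 1.51, Ddit4l at 13.99 ± 2.44, Sesn2 at 11.5 ± 1.80, Nupr1 at 8.92 ± 5.52 and Eif4ebp1 at 2.09 ± 0.767 (SD, n = 12). Eif4ebp2 and Ddit4l were the neighbours in this order whose ranges did not overlap, at 19.0 to 23.6 and 7.94 to 16.8 TPM. All other neighbours overlapped over the 12 libraries. Within libraries, Ddit4 lay above Depdc5, Sesn1 above Eif4ebp2, Eif4ebp2 above Ddit4l and Nupr1 above Eif4ebp1 in 12 of 12. Sesn2 lay above Nupr1 in 6 of 6 libraries of mice 7 to 12, at means of 11.9 and 5.17 TPM, while Nupr1 lay above Sesn2 in 5 of 6 libraries of mice 1 to 6, at means of 12.7 and 11.02 TPM. Depdc5 lay above Sesn3 in 2 of 6 libraries of mice 1 to 6 and in 5 of 6 of mice 7 to 12. These levels depend on the transcript models of the files, in which Eif4ebp1 is 981 bases long where GENCODE M21 has 1997, Ddit4 1685 where it has 1755, and Sesn3 2162 where it has 1827. The Sesn2 length, 3475 bases, was the same in both.

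**Figure D4:**
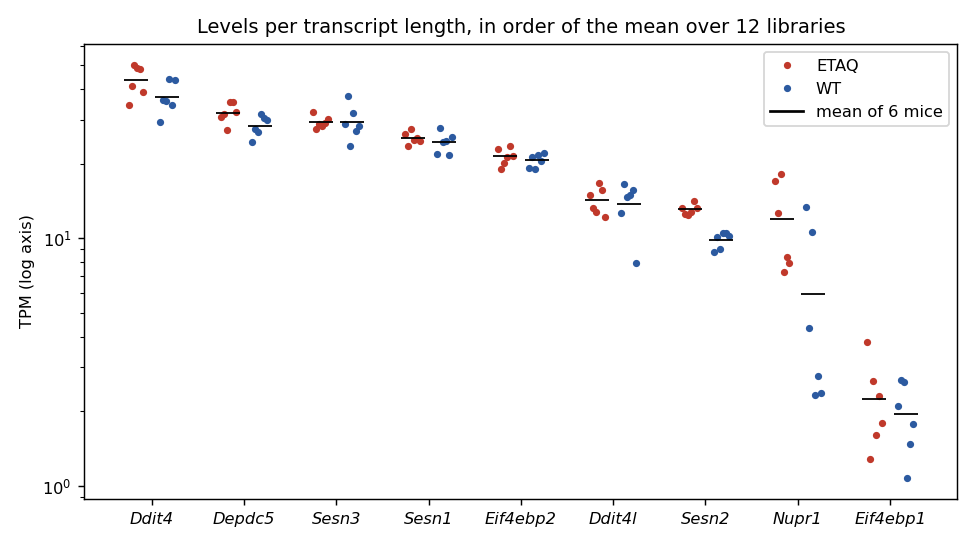
TPM on a log axis of the 9 genes in order of their mean over 12 libraries, with ETAQ mice left of WT mice and a line for the mean of 6 mice. Ddit4 is highest at a mean of 40.4 TPM and Eif4ebp1 lowest at 2.09 TPM, and Nupr1 has the widest spread.

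No other gene of the mTORC1 pathway lists passed the test. The 65 genes came from 8 lists. These were GATOR1, GATOR2, KICSTOR and amino acid sensors, and Rag GTPases with Ragulator and folliculin. The others were the TSC complex with Rheb, the mTOR complexes, AMPK with LKB1, and mTORC1 outputs. Of the 65 genes, 0 passed the edgeR test, beside 1.92% of all genes tested. At that share, 65 genes would hold few calls or none. An unadjusted p below 0.05 was found for 5 of the 65, beside 10.9% of all genes tested. Their log2 fold changes were between -0.34 and 0.12, with a median of -0.0038. The smallest p in the GATOR2 list belonged to Sec13, a subunit shared with the nuclear pore, at 41.6 ± 2.03 normalised CPM in ETAQ and 43.1 ± 2.79 in WT (log2 fold change -0.05 ± 0.044). Nprl2, a GATOR1 partner of Depdc5, was at 16.2 ± 0.657 in ETAQ and 15.9 ± 1.15 in WT. Tsc1, a subunit of the complex through which DDIT4 acts, was at 93.8 ± 2.68 in ETAQ and 93.3 ± 2.16 in WT. Rptor, the mTORC1 scaffold, was at 82.2 ± 5.15 in ETAQ and 78.5 ± 3.53 in WT (edgeR adjusted p = 0.512). Closest to the threshold were Prkab2, an AMPK beta subunit (-0.16 ± 0.045, edgeR adjusted p = 0.126), and Mapkap1, a subunit of mTORC2 (-0.11 ± 0.034, edgeR adjusted p = 0.154). Messenger RNA levels do not report mTORC1 activity, which acts through protein phosphorylation.

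Of the lists named for known inducers of these 9 genes, the transcription factor list and the ATF4 list held genes that rose. Atf4, 1 of 15 transcription factor genes, was at 99.3 ± 4.67 normalised CPM in ETAQ and 74.7 ± 5.49 in WT (log2 fold change 0.41 ± 0.038, edgeR adjusted p = 1.43e-05). Its groups did not overlap, as in 0.657% of genes tested with ETAQ higher. In the list of 5 ATF4 targets that act on growth or feedback, 2 rose and 3 did not pass, beside 0.582% of all genes called higher. The log2 fold change was above 0 in 4 of the 5. The list was chosen with earlier results of these data known, so these counts are a description. Chac1, an enzyme that degrades glutathione, was at 9.02 ± 0.433 in ETAQ and 5.44 ± 0.429 in WT (0.73 ± 0.068, edgeR adjusted p = 1.6e-05). Vldlr, a lipoprotein receptor, was at 115.9 ± 7.70 in ETAQ and 101.1 ± 2.95 in WT (0.20 ± 0.041, edgeR adjusted p = 0.0217). None of 13 p53 targets, 9 FoxO targets, 10 glucocorticoid-responsive genes and 8 hypoxia-responsive genes passed the edgeR test, which called 1.92% of genes. An unadjusted p below 0.05 was found for 2, 1, 1 and 3 of them, in that order, beside 10.9% of all genes. The log2 fold change was above 0 in 7, 4, 5 and 0 of them, and its median in the hypoxia list was -0.067. The smallest p among the hypoxia-responsive genes was that of Bnip3, a mitophagy receptor, with a log2 fold change of -0.10 ± 0.027 (edgeR adjusted p = 0.0728). At a share of 1.92%, lists of 8 to 13 genes would hold few calls or none. The part of any of these inducers in the Sesn2 difference was not tested.

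The genes whose pattern over the 12 libraries was closest to that of Sesn2 were Trim66, Asns and Aldh18a1. Likeness was the root-mean-square difference of log2 normalised CPM, each gene centred on its mean. It was 0.0629 for Trim66, 0.0684 for Asns and 0.0738 for Aldh18a1, beside a median of 0.227 over all genes. A pattern close to that of Sesn2 carries its genotype difference, so the choice sets the direction of these genes and their values are a description. Asns, which makes asparagine, was at 89.3 ± 3.12 normalised CPM in ETAQ and 74.3 ± 3.38 in WT. Aldh18a1, which starts proline synthesis, was at 33.1 ± 1.29 in ETAQ and 25.1 ± 1.40 in WT. Trim66, a nuclear tripartite motif protein gene, was at 57.0 ± 2.53 in ETAQ and 46.5 ± 3.49 in WT.

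By the GENCODE M21 annotation of GRCm38, the 9 genes lie on 7 chromosomes, are protein coding and share no exon bases with another gene. Sesn2 (ENSMUSG00000028893) spans bases 132492032 to 132510501 of chromosome 4 and Nupr1 (ENSMUSG00000030717) bases 126623249 to 126630861 of chromosome 7, both on the minus strand. Depdc5 (ENSMUSG00000037426) spans bases 32863701 to 32994236 of chromosome 5 on the plus strand. Ddit4, Eif4ebp2 and Sesn1 lie on chromosome 10, Sesn3 on chromosome 9, Ddit4l on chromosome 3 and Eif4ebp1 on chromosome 8. Sequence runs of 75 bases, the read length, that also occur in other genes made up 0.330% of Eif4ebp1 and none of the other 8. Only exact runs in annotated transcripts were compared, so copies that differ by a few bases were not assessed.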

How the data were processed

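RNA from whole spinal cord of 12 mice was sequenced as 75 bp paired reads after polyA selection, per the labels' protocols. The submitters' processing notes name Bowtie2 2.2.0 and RSEM 1.2.12, while build, annotation and strandedness are not given in the sources used here. Per the file headers, the deposited tables hold expected counts (estimated reads per gene, 15.4% of values not whole), TPM and FPKM values scaled for length and depth, and transcript lengths. FPKM was not tested.

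The 9 genes and all gene lists were chosen with earlier results of these data known. Expected counts were rounded and tested in edgeR 4.0.16 (R 4.3.3) with TMM scaling, filterByExpr and the robust quasi-likelihood test over 17189 genes. Normalised CPM is the CPM after TMM scaling. The model held sex and genotype; further fits gave the genotype effect by sex, by mouse set, and the set effect. Log2 transcript length was tested with limma 3.58.1 on 10768 genes whose length varied. Intervals are 95%. The sets of mice 1 to 6 and mice 7 to 12 come from the numbers in the titles, and their kind is not labelled. The fit was checked on simulated counts of 17189 genes, a small part of which were changed. For the genotype comparison it recovered 38% of genes changed 1.2-fold, 62% at 1.5-fold and 94% at 2-fold, with 5.77% of calls false. The simulated counts held no difference between the sets of mice, unlike the data. No pair of libraries agreed within sampling noise (lowest chi-square per degree of freedom 5.57). Alternatives were DESeq2 1.42.0, limma-voom, RLE size factors, no count filter, no sex term, a set term, limma on log2(TPM + 0.1 or 1), and leaving out each library. Genes named are the 9, those called or with the smallest p in each list, and the 3 closest in pattern to Sesn2. Motifs were matched in RefSeq sequence upstream of the start. Eif4ebp1 was not part of the motif search.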

Additional observations from a re-analysis of the deposited data

Results flagged for a closer look

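Ddit4l in ETAQ mouse 11 was at 14.4 normalised CPM, apart from the other 5 ETAQ cords at 17.1 to 18.0. That mouse is the ETAQ male among mice 7 to 12, and WT mouse 12 of the same set was lower still at 10.1. The mean transcript length of Eif4ebp2 was 1778.8 bases in ETAQ mouse 6 and 1786 bases in the other 5 ETAQ libraries, a gap that the constant values of the others make stand out. A gap between the extreme library and the rest was looked for in 27 groups of 4 to 10 libraries, and chance flags about 1 in 20.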

How the results depend on the processing

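Sesn2 passed the genotype test over 12 mice in every alternative tried, with log2 fold changes between 0.35 and 0.40, and Nupr1 passed in none of them, at 0.85 to 1.42. The genotype test called 506 genes with DESeq2, 160 with log2(TPM + 0.1), 162 with log2(TPM + 1) and 133 with log2(TPM + 0.1) and no filter, against 330; the cause was not tested. Without the sex term the set effect called 3533 genes against 1356. With at least 100 counts in every library the length test called 0 genes of 8316, with 401 at an unadjusted p below 0.05. Without WT mouse 3 in turn, and with mice 7 to 12 fitted alone (1.60), Nupr1 passed in that set.

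Leaving out each library in turn gave 70 to 140 genes called in females, 68 to 129 in males, 0 to 2 for their difference, 75 to 142 in mice 1 to 6, 73 to 168 in mice 7 to 12, 0 to 3 for the difference between sets and 1 to 6 for length. The set effect called 168 to 1565, with 168 without ETAQ mouse 1 and 275 without ETAQ mouse 11.

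Signs changed only in genes that did not pass. Over 12 mice, leaving out 1 library gave log2 fold changes of -0.0055 to 0.025 in Eif4ebp2, -0.064 to 0.35 in Eif4ebp1, -0.10 to 0.027 in Sesn3, -0.0011 to 0.030 in Depdc5, -0.019 to 0.037 in Sesn1 and -0.0035 to 0.17 in Ddit4l. Sesn3 was at 0.0086 on log2(TPM + 0.1), with and without the filter, and at 0.0080 on log2(TPM + 1). In females Ddit4 was at -0.042 to 0.20, Sesn3 at -0.068 to 0.066, Depdc5 at -0.052 to 0.0025 and Sesn1 at -0.037 to 0.091. In males Eif4ebp2 was at -0.050 to 0.0074, Sesn3 at -0.23 to 0.059 and Sesn1 at -0.074 to 0.044. For females minus males Sesn3 was at -0.057 to 0.23 and Sesn1 at -0.033 to 0.10. In mice 1 to 6 Eif4ebp2 was at -0.046 to 0.012 (0.029 without the sex term, 0.024 with the set alone), Eif4ebp1 at -0.42 to 0.16 (0.050 and 0.044), Sesn3 at -0.20 to 0.093 and Sesn1 at -0.033 to 0.084. In mice 7 to 12 Ddit4 was at -0.026 to 0.20, Sesn3 at -0.083 to 0.031, Depdc5 at -0.036 to 0.018, Sesn1 at -0.078 to 0.050, and Eif4ebp2 at -0.0046 without the sex term and -0.0041 with the set alone. For the difference between sets Sesn3 was at -0.17 to 0.13 (0.00096 without the sex term), Sesn1 at -0.035 to 0.11 and Eif4ebp2 at 0.033 without the sex term. The set effect was -0.030 to 0.079 in Eif4ebp2 (-0.038 without the sex term) and -0.53 to 0.26 in Ddit4, and the length change of Nupr1 was -0.018 to 0.016.

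No paired analysis was possible because the mouse numbers are unique and no number is shared between the genotypes. Eif4ebp1 rests on 13 to 56 expected counts a library, and Nupr1 on 26 to 39 in WT mice 3, 7, 10 and 12; whether depth limits these genes was not tested.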
